A study of Homo sapiens with 22 samples.

Results

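The response of 3 Burkitt lymphoma cell lines to combined epigenetic drug treatment was compared, Namalwa and Raji on one side and Daudi on the other. The comparison used the 12 Burkitt arrays of the 22 arrays in the series, and all 19065 probe sets with a single gene symbol out of 22283 on the array. The arrays were taken by cell line and treatment as the labels give them. Each line was measured untreated on 2 arrays and treated on 2 arrays. The treated cells received 5-aza-dC (decitabine), which traps and depletes DNA methyltransferases, for 6 days. For the last 24 h they also received TSA (trichostatin A) at 625 nM, which blocks histone deacetylases. The sample titles give 5 µM 5-aza-dC and the protocol gives 3 µM, so the dose is not settled here. All lines grew in the same medium with fetal bovine serum, and the protocol names no vehicle for the untreated cells.

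Burkitt lymphoma is a tumour of germinal centre B cells with a translocation that brings MYC under control of an immunoglobulin enhancer. Inhibitors of DNA methylation can release genes silenced by promoter methylation, among them genes normally active in the germ line, and can induce interferon-stimulated genes. In the interferon pathway, sensors of foreign nucleic acid lead to secretion of interferon, which signals through its receptors to STAT and IRF factors. These factors bind a short promoter element, the interferon-stimulated response element, and switch on antiviral effector genes.

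Levels are log2 expression values on the scale of robust multi-array averaging (RMA), on which a step of 1 is a 2-fold change. The drug effect in a line is the mean of its treated arrays minus the mean of its untreated arrays. The difference of effects is the mean effect of Namalwa and Raji minus the effect in Daudi. A probe set or gene is called where limma's adjusted p was under 0.05. A gene is read from its probe set with the highest mean over the 12 arrays. Whether the duplicates were grown separately is not stated in the labels, and the p-values therefore measure a spread between arrays that may be technical only. Each line is 1 line, and nothing here separates a property of 1 line from one of a kind of line. The series text states that the treated Burkitt arrays had been published before, so array batch and treatment cannot be told apart, in all 3 lines alike.

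Array medians lay between 6.74 and 6.87. CD79A, a chain of the B-cell receptor complex, was at 11.18 and 11.20 in untreated Daudi, 11.01 and 10.78 in Namalwa and 10.61 and 10.89 in Raji. The B-cell marker CD72 lay close to the array medians in Raji, at 6.95 and 7.13, and was at 7.33 and 7.25 in Daudi. The light chain probe sets set Namalwa apart. Kappa (IGKC) was at 10.82 and 10.66 in Daudi and 10.61 and 10.79 in Raji but 8.92 and 8.28 in Namalwa. Lambda (IGLC1) reached 14.12 and 13.97 in Namalwa. It was at 11.27 and 10.99 in Daudi and 10.55 and 10.91 in Raji, so the lambda probe set was not dim in these lines. Median levels of the marker lists for T and NK, myeloid, erythroid and platelet, and epithelial and stromal genes lay between 5.38 and 7.24 on untreated and between 5.52 and 7.18 on treated arrays. The second untreated Raji array stood apart in the ACTB control probe sets, with a 3' minus 5' difference of 0.07 against -0.76 to -0.28 on the other 11 Burkitt arrays. The main counts are therefore also given without it.

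The drugs moved many genes in every line. Of 11963 genes, 1241 rose and 1173 fell in Daudi (10.4% and 9.81%), 1260 rose and 1598 fell in Namalwa (10.5% and 13.4%), and 582 rose and 1165 fell in Raji (4.87% and 9.74%). In all 3 lines, 212 genes rose (1.77%) and 503 fell (4.2%). Across genes, which are not independent replicates, the correlation of drug effects was 0.76 between Namalwa and Raji, 0.68 between Daudi and Namalwa and 0.64 between Daudi and Raji. These counts rest on few arrays. In probe sets, 1767 rose and 1734 fell in Daudi, and 739 to 938 rose and 550 to 1032 fell without any 1 of its 4 arrays. In Namalwa 1747 rose and 2439 fell, and 751 and 783 rose and 1178 and 1433 fell without its first or second untreated array. In Raji 839 rose and 1640 fell. Without its first treated array 482 rose and 567 fell, without its second treated array 1345 rose, and without its second untreated array 353 rose and 808 fell. Effects of 2-fold or more were seen for 1494 genes in Daudi, 1715 in Namalwa and 1198 in Raji.

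The difference of effects was called for a small share of genes. The effect in Namalwa and Raji lay above that in Daudi for 102 probe sets (0.535%) and below it for 147 (0.771%) of 19065 at limma's adjusted threshold. At the level of genes these were 77 (0.644%) and 114 (0.953%) of 11963. The genes above the Daudi effect differed by more: 33 of the 77 differed by 4-fold or more, against 4 of the 114. All 77 lay above Daudi in Namalwa and in Raji taken singly, and 113 of the 114 lay below it. Namalwa and Raji were each called against Daudi with that sign for only 27 of the 77 and 21 of the 114. Among genes named below, Raji alone was not called against Daudi for TAPBP, BCL2A1, IL1B, ICAM1 and IRF1, for example. Namalwa alone was not called against Daudi for CXCL8, REL and CXCL11, for example. Without the second untreated Raji array, 86 and 109 probe sets were called. The count depended strongly on single arrays. Of 249 probe sets in both directions (1.31%), 71 and 17 were called without the first or the second treated Daudi array, 18 and 14 without the first or second untreated one, and 30 and 41 without the first or second untreated Namalwa array. It was 150 without the first treated Namalwa array, and 564 and 453 without the first or second treated Raji array. It depended on the lines as well: 18 were higher and 16 lower without Namalwa, and 353 and 400 without Raji. With lines as units in place of arrays, which leaves 1 degree of freedom, limma called 0 higher and 0 lower, with 1541 at an unadjusted p under 0.05. Of 54 genes named below as called in this contrast, 7 were called whichever of the 12 arrays was left out. They were IFI27, IFIT1, CSTA, CXCL9, RIGI, ACD and CASP6. The lowest number of these 12 fits with the call was 2, for TAPBP and CXCL8. Other probe sets were present for 22 of the 54, and another one was called the same way for 6 of these and none for 16.

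**Figure D1:**
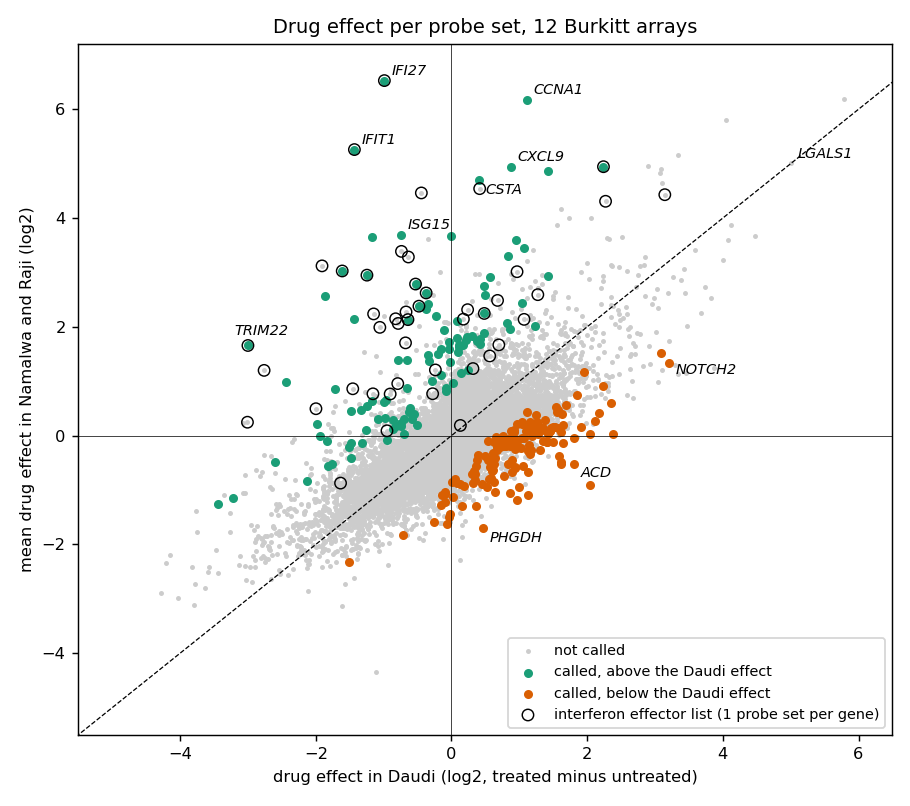
Drug effect in Daudi (horizontal axis) against the mean drug effect in Namalwa and Raji (vertical axis), both log2 treated minus untreated, for 19065 probe sets; green and orange points are the 102 and 147 called probe sets, and rings mark the 45 measured genes of the interferon effector list. The dashed line marks equal effects, and all 45 rings lie above it. The leading points IFI27 and IFIT1 lie left of 0 in Daudi and above 5 in the mean effect of the other lines.

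The 77 genes above the Daudi effect reached their difference in several ways. For 34 of them the gene rose in Namalwa and in Raji and was not called in Daudi. For 33 the gene fell in Daudi, and 18 of these were called in neither of the other lines. 8 genes rose in all 3 lines but by less in Daudi. Only USP18 was called in opposite directions, higher in Namalwa and Raji and lower in Daudi. Among the 114 genes below the Daudi effect, 88 rose in Daudi, 48 of them without a call in either other line, and 19 fell in Namalwa and Raji without a call in Daudi. 4 of the 114 were called in opposite directions. The untreated level already differed between Daudi and the other lines for 42 of the 77 and 54 of the 114 genes, against 5.88% of all genes. These counts use the same arrays as the difference of effects and are a description of it.

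Antiviral effector genes of the interferon response were among the leading genes of the first group. The list held 56 effectors, of which 45 were measured, and it was drawn up with the interferon response in these data already known. The difference of effects was above 0 for all 45, against 46.9% of all genes, and was 1 or more for 40 of them, against 2.65% of all genes. 11 were called above and 0 below the Daudi effect, against 0.644% and 0.953% of all genes. Their median difference was 2.49, beside -0.02 over all genes. The median drug effect on the list was -0.64 in Daudi, 1.84 in Namalwa and 2.58 in Raji. In Namalwa 23 effectors rose and in Raji 27, with none called lower, while in Daudi 5 rose and 3 fell. Of all genes 10.5% rose in Namalwa and 4.87% in Raji, and 10.4% rose and 9.81% fell in Daudi. The called counts in Daudi are thus near the share of all genes, although 30 of the 45 Daudi effects were below 0. The median effect in Daudi was 0.05 over all genes. Without the second untreated Raji array the median was 2.34 and 8 effectors were called. Over the 12 fits that each left out 1 array the median ran from 2.03 to 2.95, with 44 or 45 effectors above 0. The number of called effectors was 5 and 4 without the first or second treated Daudi array, 2 and 3 without the first or second untreated one, and 5 and 6 without the first or second untreated Namalwa array. It was 36 and 25 without the first or second treated Raji array.

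**Figure D2:**
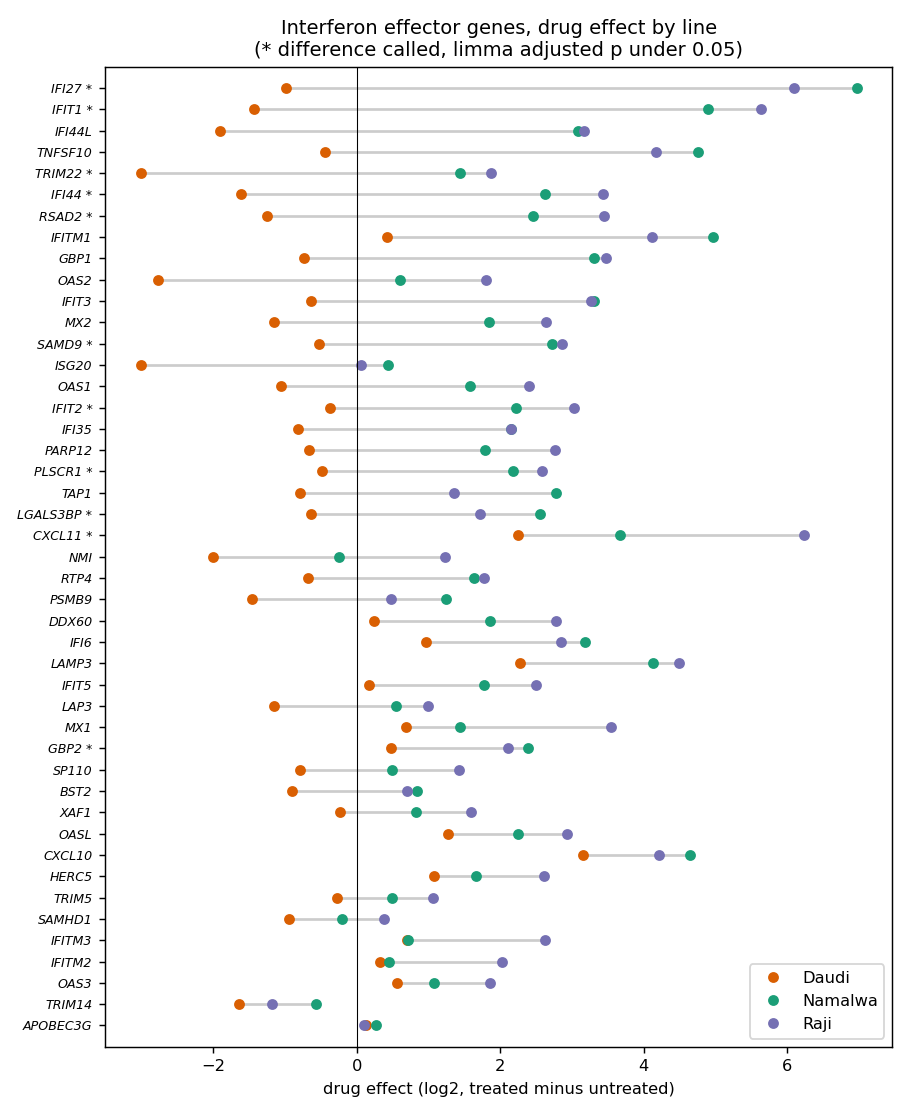
Drug effect (log2, treated minus untreated) in each line for the 45 measured interferon effectors, 1 row per gene, sorted by the difference of effects; points are line effects from 2 arrays per group, and asterisks mark the 11 called genes. The Daudi points (orange) lie left of both other lines in every row but that of APOBEC3G, at -3.00 for TRIM22 and -0.99 for IFI27.

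The untreated lines started from different levels. Of the 45 effectors, 39 were lower in untreated Namalwa and Raji than in untreated Daudi, and all 45 were higher after treatment. Of these differences limma called 9 lower in untreated and 18 higher in treated Namalwa and Raji, with none called the other way. The untreated difference was called, in either direction, for 5.88% of all genes. The share of all genes for the treated difference was not counted, so the 18 cannot be set against it. The median of the difference in level between these lines and Daudi was -0.98 untreated and 1.47 treated, beside -0.005 and -0.03 over all genes. The middle effector was at 8.31 in untreated Daudi, 7.21 in untreated Namalwa and 7.11 in untreated Raji, and at 7.82, 9.52 and 9.73 after treatment. The duplicates did not all lie close together. By array, the list median was 8.54 and 10.62 in treated Raji, 9.80 and 8.98 in treated Namalwa and 7.89 and 7.72 in treated Daudi. On untreated arrays it was 7.37 and 6.60 in Raji, 7.27 and 7.15 in Namalwa and 8.46 and 8.20 in Daudi. Treated arrays lay above untreated ones without overlap in both Namalwa and Raji for 32 effectors (18.4% of all genes), and below them in Daudi for 29 (26.3% of all genes). For 18 both held, against 0.744% of all genes.

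IFI27, a mitochondrial protein strongly induced by type I interferon, showed the largest difference among called genes. On the untreated arrays it was at 13.10 and 12.89 in Daudi, 6.10 and 6.02 in Namalwa and 6.66 and 5.95 in Raji. On the treated arrays it was at 12.05 and 11.97 in Daudi, 13.24 and 12.80 in Namalwa and 11.86 and 12.93 in Raji. The treated arrays of Namalwa and Raji lay at or near the Daudi levels, far above their own untreated arrays, and the Daudi groups did not overlap either. The effects were -0.99 in Daudi, 6.96 in Namalwa and 6.09 in Raji, and the difference of effects was 7.52 (SE 0.42, 95% interval 6.57 to 8.46, limma adjusted p = 0.000287).

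IFIT1, which binds viral RNA that lacks host cap methylation, passed the Daudi level after treatment. Untreated arrays read 9.61 and 9.48 in Daudi, 5.40 and 5.39 in Namalwa and 5.73 and 4.85 in Raji. Treated arrays read 7.93 and 8.30 in Daudi, 10.36 and 10.22 in Namalwa and 10.14 and 11.70 in Raji. The groups did not overlap in any line, and the order of the lines was turned around. The difference of effects was 6.69 (SE 0.55, limma adjusted p = 0.00264).

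TRIM22, an antiviral ubiquitin ligase, was called among the lines in Daudi alone. There it fell from 10.46 and 10.43 to 7.17 and 7.72, an effect of -3.00. In Namalwa it read 8.75 and 8.76 untreated and 10.85 and 9.54 treated, and in Raji 9.01 and 8.42 untreated and 9.58 and 11.59 treated. Neither effect was called, and the treated Raji arrays lay further apart than the Raji effect of 1.87. The difference of effects was 4.66 (SE 0.75, limma adjusted p = 0.0295) and was called in 5 of 12 fits that left out 1 array.

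The other called effectors rose in Namalwa and in Raji. In Daudi CXCL11 rose and none of the others was called. IFI44, of unsettled biochemical function, differed by 4.64, but its second probe set by 0.76 with no call. RSAD2 (viperin, which makes a chain-terminating nucleotide) differed by 4.20 and SAMD9, an inhibitor of poxvirus replication, by 3.32. IFIT2 differed by 3.00 and the chemokine CXCL11 by 2.70. The 3 remaining called effectors, outside the naming rule and named after their values were seen, were PLSCR1, a phospholipid scramblase, at 2.86, LGALS3BP, a secreted galectin ligand, at 2.77, and GBP2, a guanylate-binding GTPase, at 1.76. MX1, a GTPase that blocks influenza virus, was not called: its difference of 1.81 had an interval of -0.44 to 4.05, and its treated Raji arrays read 8.37 and 11.34.

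The sequences upstream of the called effectors were searched for the core of the interferon-stimulated response element, taken as GAAA, any 2 bases and GAAA again, on both strands (TTTC on the other strand), in the 250 bases before the gene start (RefSeq, GRCh38.p14). 4 of them are shown because they belong to the leading called effectors that hold a match; capitals mark the match, and each sequence runs 5' to 3' on the strand of the gene.
IFI27 (chr14:94110486-94110735, plus strand): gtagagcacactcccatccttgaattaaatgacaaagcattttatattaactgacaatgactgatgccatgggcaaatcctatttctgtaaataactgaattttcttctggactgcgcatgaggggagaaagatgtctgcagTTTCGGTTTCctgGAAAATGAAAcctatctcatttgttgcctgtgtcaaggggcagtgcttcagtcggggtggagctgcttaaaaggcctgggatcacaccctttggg
IFIT1 (chr10:89392373-89392622, plus strand): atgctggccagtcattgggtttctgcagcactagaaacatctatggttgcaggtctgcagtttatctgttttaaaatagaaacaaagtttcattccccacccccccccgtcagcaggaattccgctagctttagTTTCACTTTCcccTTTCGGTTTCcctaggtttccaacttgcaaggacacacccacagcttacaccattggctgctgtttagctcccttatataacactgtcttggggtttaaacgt
IFI44 (chr1:78649539-78649788, plus strand): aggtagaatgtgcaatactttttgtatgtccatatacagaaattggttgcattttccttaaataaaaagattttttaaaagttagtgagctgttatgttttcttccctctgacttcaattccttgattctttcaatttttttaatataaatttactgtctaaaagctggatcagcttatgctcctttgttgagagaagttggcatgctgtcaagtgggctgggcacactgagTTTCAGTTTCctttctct
SAMD9 (chr7:93117980-93118229, minus strand): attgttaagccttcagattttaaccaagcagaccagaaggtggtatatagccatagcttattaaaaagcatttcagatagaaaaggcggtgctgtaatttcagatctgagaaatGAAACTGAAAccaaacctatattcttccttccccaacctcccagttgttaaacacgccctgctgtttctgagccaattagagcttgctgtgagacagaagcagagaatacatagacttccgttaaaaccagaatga

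IFI27 and IFIT1 held 2 matches each, beginning 108 and 95 bases before the start in IFI27 and 116 and 103 bases in IFIT1. The single matches in IFI44 and SAMD9 began 18 and 136 bases before the start. Of 36 measured effectors with a promoter sequence, 27 (75%) held the motif, and so did 6 of 8 called effectors with a promoter. RSAD2 and CXCL11 had no match in this window. Among all measured genes with a promoter the share was 245 of 9562 (2.56%), and it was 839 of 27305 (3.07%) over all promoters available. Of genes called above the Daudi effect, 12 of 62 (19.4%) held it, and of genes called below, 3 of 96 (3.13%). Called effectors supply 6 of the 12 above the Daudi effect, so that share comes in part from the list. The effectors were listed for their known induction by interferon, so their share is a description of the list, and a match is not a measured binding site.

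**Figure D3:**
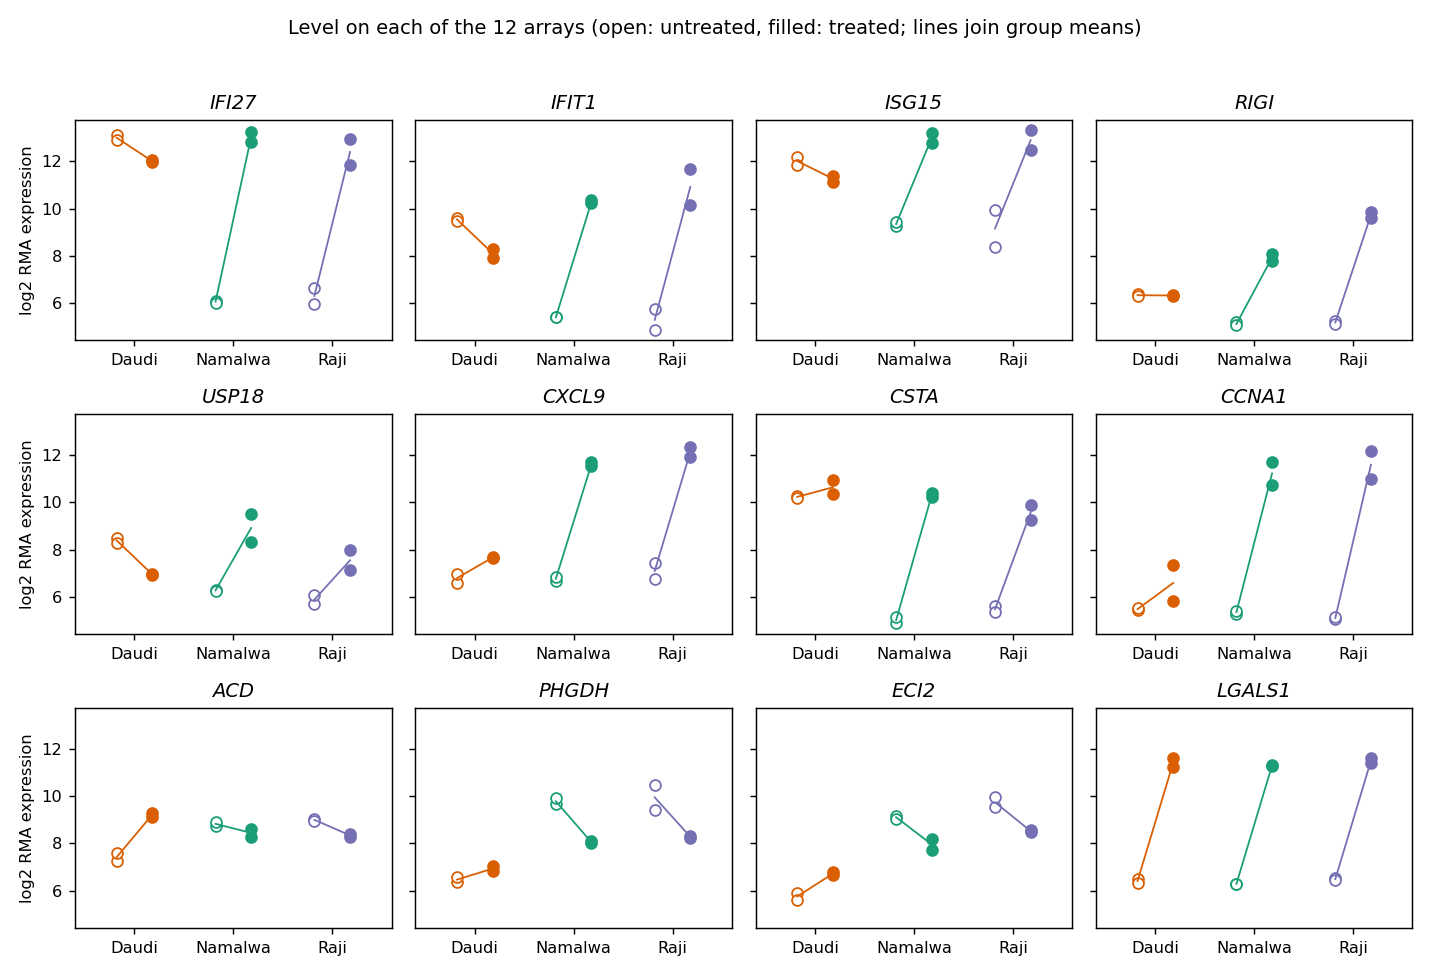
Level (log2 RMA) of 12 genes on each of the 12 arrays, by line; open points are untreated and filled points treated arrays, 2 of each per line, and lines join the group means. IFI27, IFIT1 and CSTA start high in Daudi and low in Namalwa and Raji, CXCL9 and CCNA1 start alike and part after treatment, ECI2 goes up in Daudi and down in the other lines, and LGALS1 rises alike in all lines.

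Interferon genes themselves and their receptors gave no calls in the difference. Of 19 measured ligands and receptors, 0 were called above and 0 below the Daudi effect by limma, with 5 at an unadjusted p under 0.05 and a median of 0.17. IFNB1, the type I interferon first made on viral sensing, read between 5.14 and 5.83 on all 12 arrays, below the median of every array, and its difference was 0.17 (95% interval -0.24 to 0.58). The receptor chain IFNAR1 differed by 0.18 and IFNAR2 by 0.04; IFNAR2 fell in every line, by 0.93, 0.92 and 0.87. IFNG, the type II interferon, read 5.85 and 5.80 on untreated and 8.18 and 9.54 on treated Namalwa arrays, a rise of 3.04. In Raji it read 5.95 and 5.97 and then 6.26 and 6.66, and in Daudi 5.83 and 6.09 and then 5.82 and 5.94. Its difference of 1.85 was not called (limma adjusted p = 0.0775).

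Of the 19 measured sensors and adaptors, the sensors of double-stranded RNA RIGI and IFIH1 were called above the Daudi effect. This compares with 0.644% of all genes, and the median difference was 0.45. RIGI read 6.37 and 6.29 in untreated and 6.30 and 6.34 in treated Daudi. It rose from 5.18 and 5.05 to 7.78 and 8.07 in Namalwa and from 5.26 and 5.11 to 9.59 and 9.87 in Raji. Both treated groups lay above every Daudi array, and the Raji effect exceeded that of Namalwa (Namalwa minus Raji -1.74, limma adjusted p = 0.013). The difference of effects was 3.69 (SE 0.17, limma adjusted p = 0.000135). IFIH1 differed by 2.70 (limma adjusted p = 0.0347), and its second, dimmer probe set by 0.58 with no call. DHX58, the third member of that helicase family, rose in all lines by 0.87, 0.78 and 0.97, a difference of 0.01 (95% interval -0.56 to 0.58). TLR3 differed by 0.60 and was not called.

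Among 16 interferon transcription factors and kinases, 1 was called above the Daudi effect, against 0.644% of all genes, with a median of 0.54. IRF1 differed by 1.36 (limma adjusted p = 0.0295), with effects of 0.38 in Daudi, 2.47 in Namalwa and 1.001 in Raji. IRF7, the amplifier of type I interferon transcription, rose in all 3 lines by 1.74, 3.63 and 4.36, and its difference of 2.26 missed the threshold (limma adjusted p = 0.0574). IRF9, a DNA-binding factor of the type I interferon response, rose in Namalwa and Raji by 1.81 and 2.25, with 0.21 in Daudi and a difference of 1.81 that was not called. IRF3, which is switched on by phosphorylation, differed by -0.38.

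Of 12 feedback regulators, ISG15 and USP18 were called above the Daudi effect, against 0.644% of all genes, and the median was 0.74. ISG15, a ubiquitin-like modifier, read 12.19 and 11.84 in untreated and 11.14 and 11.39 in treated Daudi. It rose from 9.25 and 9.44 to 13.20 and 12.79 in Namalwa and from 9.96 and 8.36 to 12.46 and 13.33 in Raji. Treated Namalwa and Raji lay above every Daudi array. The difference was 4.44 (SE 0.57, limma adjusted p = 0.0155). USP18, the protease that removes ISG15 and dampens the interferon receptor, fell in Daudi from 8.49 and 8.29 to 6.98 and 6.93. It rose in Namalwa from 6.31 and 6.25 to 9.52 and 8.32 and in Raji from 5.70 and 6.08 to 7.13 and 7.97. Its difference was 3.59 (SE 0.46, limma adjusted p = 0.0155). Of 12 fits that each left out 1 array, USP18 was called in 6 and ISG15 in 6.

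Genes of antigen presentation by MHC class I showed a smaller shift. Of 17 measured, 2 were called above the Daudi effect and none below, against 0.644% and 0.953% of all genes, with a median difference of 1.11. The list shares TAP1 and PSMB9 with the effector list. B2M, the light chain of class I molecules, fell in Daudi from 12.32 and 12.33 to 11.72 and 11.71 and rose in Namalwa from 12.64 and 12.78 to 13.20 and 13.48. In Raji it read 12.88 and 12.51 and then 13.20 and 12.95. The difference was 1.11 (limma adjusted p = 0.0347), and 1.39 for TAPBP, which loads peptide onto class I. The TAPBP effects were -1.08 in Daudi, which was called, and 0.62 in Namalwa and 0.003 in Raji, which were not. Of 12 fits that each left out 1 array, B2M was called in 6 and TAPBP in 2. The second probe sets of both genes were not called, at 0.88 for B2M and 0.43 for TAPBP.

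Of the NF-kB subunits and targets, 5 of 34 were called above the Daudi effect and none below, against 0.644% and 0.953% of all genes. The median difference was 0.53, beside -0.02 over all genes. The median effect on the list was 0.12 in Daudi, 1.51 in Namalwa and 1.11 in Raji. The called members were TNFAIP2 at 2.46, the survival gene BCL2A1 at 2.36, the chemokine CXCL8 at 2.03, the subunit REL at 1.80 and the adhesion receptor ICAM1 at 1.62. The inhibitors NFKBIA and TNFAIP3 were not called, at -0.24 and -0.37; they are outside the naming rule and were chosen after their values were seen. TNFAIP2 rose in every line, by 0.83 in Daudi, 3.02 in Namalwa and 3.57 in Raji. REL fell in Daudi by 1.16 and rose in Raji by 1.09. Of the called genes, TNFAIP2, CXCL8 and REL each had a second probe set with no call. BCL2A1 and ICAM1 also stand on the list of genes induced by the Epstein-Barr virus proteins EBNA2 or LMP1. On that list 2 of 28 were called above the Daudi effect, against 0.644% of all genes, and the median was 0.36. All 3 lines carry the virus, and the strain in Daudi is known to lack EBNA2; viral transcripts were not analysed here.

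Of 26 chemokines and receptors, 4 were called above the Daudi effect, against 0.644% of all genes, with a list median of 0.24. They were CXCL9, CXCL11, CXCL8 and CCL19. CXCL9, a ligand of CXCR3 on T cells, started alike, at 6.61 and 6.98 in Daudi, 6.69 and 6.84 in Namalwa and 7.45 and 6.75 in Raji. After treatment it read 7.69 and 7.64 in Daudi, 11.54 and 11.70 in Namalwa and 11.94 and 12.34 in Raji. It rose in every line, and the treated Namalwa and Raji arrays stood far above treated Daudi. The difference was 4.08 (SE 0.29, limma adjusted p = 0.00114). CXCL11, which binds the same receptor, rose by 2.24, 3.66 and 6.23, more in Raji than in Namalwa (limma adjusted p = 0.0167). CXCL10, the third ligand, rose by 3.14, 4.65 and 4.21, and its difference of 1.28 was not called. CCL19, a ligand of CCR7, differed by 1.09. Of 33 interleukins and receptors 1 was called above the Daudi effect, IL1B at 1.51, against 0.644% of all genes, and the median was 0.15.

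Some leading genes stood on none of the lists, CSTA and CRIP1 among them. CSTA, an inhibitor of cysteine proteases, was high in Daudi throughout, at 10.28 and 10.19 untreated and 10.35 and 10.93 treated. In Namalwa it rose from 4.90 and 5.14 to 10.40 and 10.23 and in Raji from 5.62 and 5.35 to 9.25 and 9.90, close to the Daudi level. The difference was 4.29 (SE 0.30, limma adjusted p = 0.00114). CRIP1, a LIM domain protein, fell in Daudi from 10.97 and 10.42 to 9.04 and 8.62. It rose in Namalwa from 6.45 and 6.02 to 10.21 and 10.46, while in Raji it read 7.54 and 8.73 and then 9.71 and 8.62. Its difference was 4.43, with 5.96 for Namalwa against Daudi and 2.89 for Raji against Daudi, the last not called. PLXNC1, a semaphorin receptor, fell in Daudi by 2.44 and differed by 3.42; its other probe sets differed by 1.46 and 1.30 with no call.

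Of 29 cancer-testis and germ-line genes, 2 were called above the Daudi effect, against 0.644% of all genes, and the median was 0.31. 3 rose in Daudi, 15 in Namalwa and 15 in Raji, against 10.4%, 10.5% and 4.87% of all genes, and the Daudi count is at that share. CCNA1, the cyclin A of meiotic cells, was low in every untreated line, at 5.45 and 5.52 in Daudi, 5.30 and 5.42 in Namalwa and 5.05 and 5.17 in Raji. Treated arrays read 7.36 and 5.83 in Daudi, 10.74 and 11.71 in Namalwa and 12.20 and 10.98 in Raji. It rose in Namalwa by 5.86 and in Raji by 6.48, and its Daudi effect of 1.11 was not called. The difference was 5.06 (SE 0.65, limma adjusted p = 0.0155). SSX3 was the second called member at 1.55, but its other probe sets differed by 0.05 and 0.17, and the SSX genes are near-identical copies.

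Single members were called in further lists. CDKN1A, the p53-induced inhibitor of cyclin-dependent kinases, read 8.95 and 9.01 in untreated and 9.33 and 8.95 in treated Daudi. It rose from 9.25 and 9.33 to 11.40 and 11.04 in Namalwa and from 8.95 and 8.97 to 10.34 and 10.37 in Raji. Its difference was 1.50 (SE 0.19, limma adjusted p = 0.0155), whereas the 26 measured p53 targets and cell-cycle inhibitors, CDKN1A among them, had a median of -0.18. The metallothionein MT2A differed by 2.06, the neuronal enolase ENO2 by 1.70 and fibronectin (FN1) by 1.58. ANXA1 was called at 0.91, with 1.58 for Namalwa against Daudi and 0.23 for Raji against Daudi, the last not called. CASP6, an executioner caspase, was called the other way at -1.37. It rose in Daudi from 4.92 and 5.07 to 6.42 and 6.47, while the Namalwa effect was 0.10 and the Raji effect 0.07. Its second, dimmer probe set differed by -0.40 with no call.

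Most genes below the Daudi effect rose in Daudi. ACD, the shelterin subunit that recruits telomerase to telomeres, rose in Daudi from 7.24 and 7.59 to 9.30 and 9.14. It read 8.75 and 8.91 untreated and 8.27 and 8.63 treated in Namalwa, and fell in Raji from 9.03 and 8.97 to 8.40 and 8.29. Treated Daudi lay above every other array of the 12. The difference was -2.32 (SE 0.20, limma adjusted p = 0.00306). Likewise MAST3, a microtubule-associated kinase, rose in Daudi by 1.90 with 0.45 in Namalwa and -0.13 in Raji. SS18L1, a subunit of a neuronal chromatin remodelling complex, rose in Daudi by 2.11, and RALGAPA1, a subunit of a GTPase activator for Ral proteins, by 1.81. The pseudogene transcripts CROCCP2 and NSUN5P1 rose in Daudi by 2.05 and 1.64; short probes may not separate them from their parent genes.

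NOTCH2, a receptor of the Notch pathway, rose in all 3 lines but most in Daudi. It went from 6.90 and 6.94 to 9.86 and 10.40 in Daudi, from 7.72 and 7.68 to 8.91 and 9.52 in Namalwa and from 9.16 and 9.12 to 10.61 and 9.98 in Raji. The difference was -1.88 (SE 0.32, limma adjusted p = 0.0335). None of its 3 other probe sets was called, at -1.89, -0.66 and -0.22, and NOTCH2 itself was called in 3 of 12 fits that left out 1 array. LRRFIP1 rose by 2.35 in Daudi and 0.99 in Namalwa, with 0.20 in Raji.

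Other genes below the Daudi effect fell in Namalwa, in Raji or in both. PHGDH, the first enzyme of serine synthesis, read 6.37 and 6.57 in untreated and 7.04 and 6.83 in treated Daudi. It fell from 9.66 and 9.91 to 8.01 and 8.09 in Namalwa and from 9.42 and 10.48 to 8.23 and 8.33 in Raji. The difference was -2.17 (SE 0.35, limma adjusted p = 0.0295). The groups of Namalwa and of Raji did not overlap, and PHGDH was called in 5 of 12 fits that left out 1 array. GCSH, of the glycine cleavage system, fell in Namalwa and Raji by 1.33 and 1.27, with 0.37 in Daudi. PIBF1, a centrosomal protein, fell in Namalwa by 1.44, with -0.64 in Raji and 0.65 in Daudi. The esterase ESD fell in Namalwa by 1.30 and rose in Daudi by 1.002, and CCDC28B fell in Raji by 1.50 and rose in Daudi by 0.86. The second probe set of CCDC28B differed by 0.051 with no call.

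The 4 genes called in opposite directions here were ECI2, LRRC47, INTS8 and PAXBP1. ECI2, an isomerase of fatty acid oxidation, rose in Daudi from 5.89 and 5.62 to 6.79 and 6.65. It fell in Namalwa from 9.17 and 9.06 to 7.74 and 8.18 and in Raji from 9.54 and 9.95 to 8.49 and 8.56. Treated levels had moved towards each other but did not meet, and the difference was -2.15 (SE 0.23, limma adjusted p = 0.00687). LRRC47 differed by -1.34, the Integrator subunit INTS8 by -1.23 and PAXBP1 by -1.14. Over all genes, this pattern of calls was found for 0.0334%, and the reverse one, of USP18, for 0.00836%.

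Cell-cycle genes were compared line by line. Of 37 mitosis genes, 28 fell in Namalwa, 8 in Daudi and 1 in Raji, against 13.4%, 9.81% and 9.74% of all genes. The Raji count is below that share. Their median effect was -1.62 in Namalwa, -0.52 in Daudi and -0.07 in Raji. None was called by limma in the difference from Daudi (3 at an unadjusted p under 0.05), whose median was -0.48. Against Daudi the median was -1.16 for Namalwa alone and 0.30 for Raji alone. In the direct contrast of Namalwa minus Raji, 6 were called lower and none higher, against 0.334% of all genes called lower. Of 35 replication genes, 32 fell in Namalwa, 12 in Daudi and 13 in Raji, against 13.4%, 9.81% and 9.74% of all genes. Their median difference from Daudi was -0.40. ORC6, a subunit of the origin recognition complex, was called below the Daudi effect at -1.36: it rose in Daudi by 0.83 and fell in Namalwa by 0.71. DTL, the substrate receptor of a ubiquitin ligase that controls origin licensing, was called at -1.79, with 1.12 in Daudi, -1.15 in Namalwa and -0.19 in Raji.

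RRM2, a subunit of ribonucleotide reductase, read 11.97 and 11.96 in untreated and 9.04 and 9.33 in treated Namalwa. It read 11.09 and 10.44 and then 11.85 and 11.30 in Raji, and 10.72 and 10.70 and then 9.90 and 8.78 in Daudi. The Namalwa minus Raji difference was -3.59 (limma adjusted p = 0.0216), and the difference from Daudi 0.39, not called. NCAPG, a condensin subunit, differed by -3.23 between Namalwa and Raji, and BUB1, a spindle checkpoint kinase, by -2.03. Of 17 MHC class II genes, 10 rose in Namalwa, 7 in Daudi and 0 in Raji, against 10.5%, 10.4% and 4.87% of all genes, and 3 were called higher in Namalwa minus Raji (0.627% of all genes). None was called by limma in the difference from Daudi (6 at an unadjusted p under 0.05), with a median of -0.05. HLA-DRA rose in Daudi and Namalwa by 1.19 and 1.20, with 0.18 in Raji. CIITA, the regulator of class II transcription, had effects of 0.08, 0.10 and 0.19 in Daudi, Namalwa and Raji. In the same order its dimmer probe sets moved by 0.05, -0.14 and -0.52, and by 0.05, -0.02 and -0.33. Neither was called in the difference from Daudi.

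**Figure D4:**
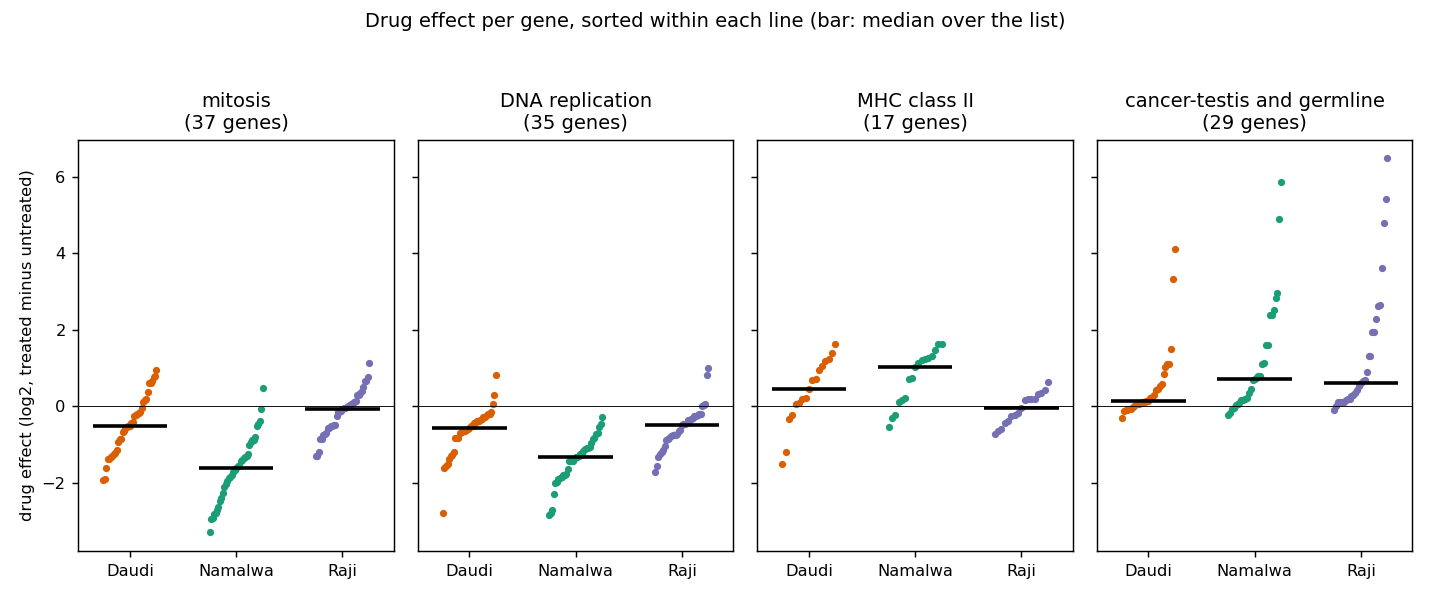
Drug effect (log2, treated minus untreated) of each gene in 4 lists, sorted within each line, with the list median as a bar. Mitosis and replication genes lie lowest in Namalwa, with medians of -1.62 and -1.33, MHC class II genes lie highest in Namalwa at 1.03, and the cancer-testis list has its highest points, CCNA1 among them, in Namalwa and Raji.

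The contrast between Namalwa and Raji called 75 genes higher (0.627%) and 40 lower (0.334%) in Namalwa. In probe sets these were 104 and 64. Without the first or second untreated Namalwa array they were 0 and 2 in both cases, and without any 1 Daudi array 20 to 34 and 27 or 28. Without the second treated Namalwa array 45 were higher. Without the second treated or the first untreated Raji array 173 and 163 were higher and 108 and 147 lower, and without the first treated or second untreated Raji array 143 and 97 were lower. SPARCL1, a secreted matrix protein, was high in untreated Raji, at 9.63 and 10.54, and fell to 5.98 and 7.12 after treatment. The Daudi and Namalwa arrays lay between 5.05 and 5.58. NMU, the neuropeptide neuromedin U, rose in Namalwa from 4.99 and 5.23 to 9.20 and 8.72, and read 7.71 and 9.59 and then 8.21 and 7.55 in Raji. The integrin chain ITGB2 rose in Namalwa by 2.24 and fell in Raji by 1.06, and PALLD, an actin cross-linker, rose in Namalwa by 3.66 with 0.43 in Raji. BACH2, a repressor of plasma cell differentiation, was at 4.50 and 5.05 in untreated Raji and fell in Namalwa from 10.61 and 10.62 to 7.26 and 6.54 and in Daudi from 10.09 and 9.58 to 7.13 and 7.36. KLRC3 likewise fell in Namalwa and Daudi by 2.98 and 2.66 on the log2 scale and was low in Raji throughout.

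Many B-cell genes fell, and none of the identity genes was called by limma in the difference, with 4 at an unadjusted p under 0.05. Of 26 B-cell identity genes, 14 fell in Daudi, 15 in Namalwa and 10 in Raji, against 9.81%, 13.4% and 9.74% of all genes. Their median difference was 0.34. CD79A fell by 3.27, 1.17 and 2.36, and PAX5, the factor that maintains B-cell identity, by 1.85, 1.47 and 1.55. None of 14 germinal centre and 19 plasma cell genes was called by limma (4 and 7 at an unadjusted p under 0.05), with medians of 0.20 and 0.49. PRDM1, the regulator of plasma cell differentiation, differed by 0.49, IRF4 by 0.97 and ID2 by 1.12, none of them called. Immunoglobulin genes had a median effect of -2.27 in Daudi, -0.85 in Namalwa and -0.78 in Raji, and a median difference of 0.70. IGHM, the mu heavy chain, fell in Daudi from 13.22 and 13.14 to 9.73 and 9.11 and in Raji from 12.36 and 12.07 to 8.41 and 10.88, and read 12.25 and 12.51 and then 11.76 and 11.09 in Namalwa. Its difference of 2.00 was not called (95% interval 0.21 to 3.78), and the treated Raji arrays lay far apart. VPREB1, a surrogate light chain, was the list's only call at -1.33; it read 7.87 and 8.02 in untreated Namalwa, fell there to 4.93 and 4.81, and was about as low on all arrays of the other lines, while the Raji minus Daudi difference was 0.15. MYC fell in every line, by 4.21, 2.62 and 2.05, and its difference of 1.87 was not called (limma adjusted p = 0.104).

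Other responses were shared. For 99 genes that rose and 320 that fell in all 3 lines, the 95% interval of the difference of effects lay within -1 and 1. LGALS1 (galectin-1), a secreted lectin, rose from 6.48 and 6.34 to 11.61 and 11.22 in Daudi, from 6.28 and 6.30 to 11.30 and 11.30 in Namalwa and from 6.53 and 6.45 to 11.61 and 11.39 in Raji. Its effects were 5.00, 5.01 and 5.01, and the interval of the difference was -0.40 to 0.41. STAT3 rose by 2.46, 2.64 and 1.99, and the postsynaptic protein NRGN by 1.84, 1.70 and 2.09. The chemokine receptor CCR7 met the same rule, at 2.78, 4.52 and 1.71, although its effects in Namalwa and Raji differed by 2.80 (limma adjusted p = 0.0137). Among genes that fell, RANBP1, a regulator of the nuclear transport GTPase, moved by -2.54, -2.99 and -1.95. CORO1A, an actin regulator of leukocytes, RBX1, the RING subunit of cullin ubiquitin ligases, and GADD45GIP1 differed by 0.21, -0.14 and -0.18.

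Genes of DNA methylation and of decitabine metabolism gave no limma calls in the difference (6 and 3 at an unadjusted p under 0.05), with medians of -0.06 and 0.07. DNMT1, the target of 5-aza-dC, fell in Namalwa from 10.11 and 10.10 to 8.05 and 7.65 and in Raji from 9.60 and 10.41 to 8.61 and 9.22. In Daudi it read 10.12 and 10.20 and then 9.61 and 9.59, and the difference of -1.11 was not called (limma adjusted p = 0.152). DCK, the kinase that activates 5-aza-dC, fell in Daudi by 2.05 and in Namalwa by 2.83, with a difference of 0.03 (95% interval -1.31 to 1.37). SAMHD1, which hydrolyses deoxynucleotide triphosphates and can inactivate the drug, differed by 1.04 and was not called. Histone genes had a median effect of 1.72 in Raji, 0.14 in Namalwa and 0.18 in Daudi, and a median difference of 0.06, with none called by limma there (2 at an unadjusted p under 0.05) or in Namalwa minus Raji. The median difference was 0.26 for heat shock and unfolded protein response genes, 0.08 for MYC and ribosome biogenesis genes and 0.02 for cholesterol and fatty acid synthesis, with no limma calls and 7, 3 and 6 at an unadjusted p under 0.05. It was 0.17 for glycolysis and 0.03 for neuronal genes, which share the called ENO2. It was 0.44 for metallothionein and oxidative stress genes, 0.35 for adhesion and cytoskeleton genes and 0.07 for the BCL2 family and death genes, whose calls are given above. Among markers of other cell types it was 0.12 for T and NK cells, 0.04 for myeloid cells, 0.05 for erythroid cells and platelets and 0.04 for epithelial and stromal cells, and FN1 was the only call in these 4 lists, with 1, 3, 0 and 2 at an unadjusted p under 0.05.

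**Figure D5:**
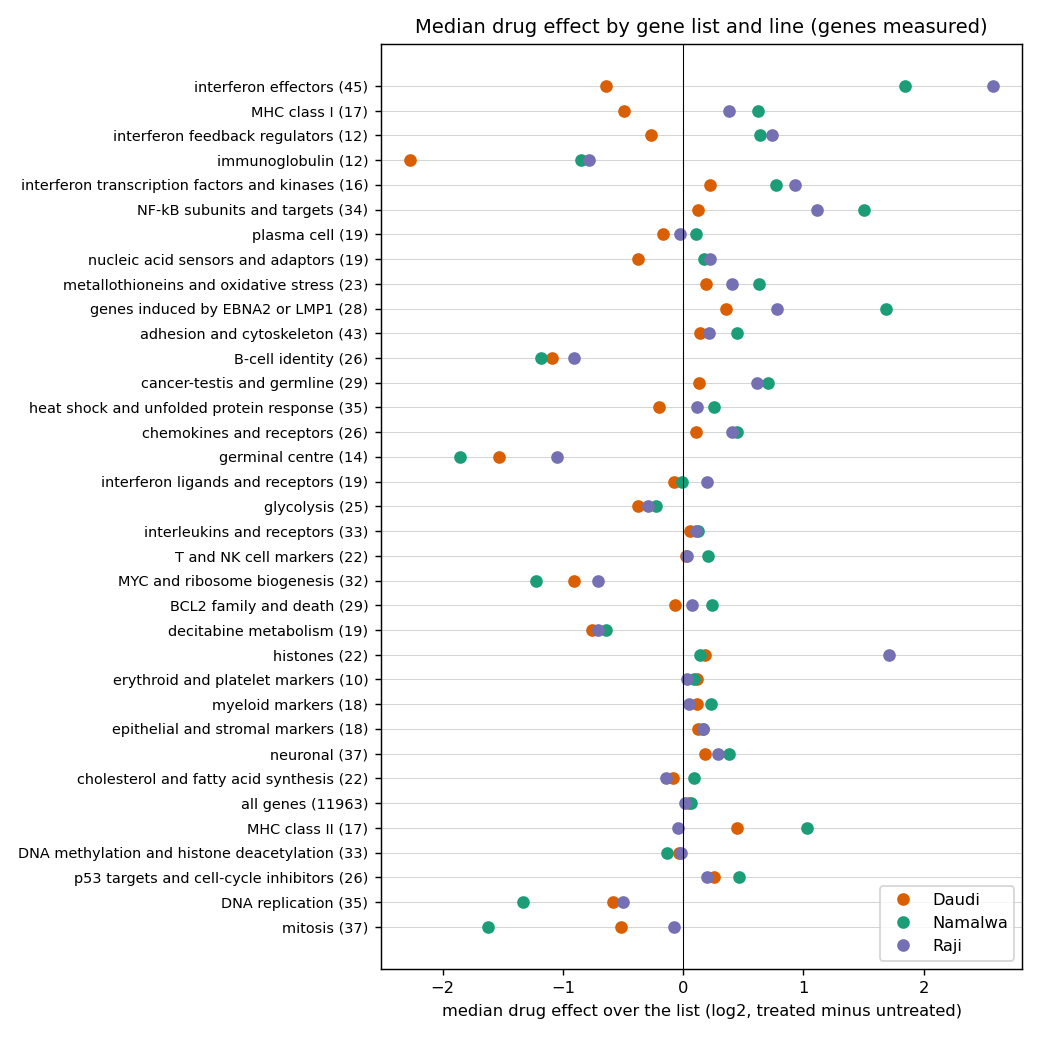
Median drug effect (log2, treated minus untreated) over each gene list in Daudi, Namalwa and Raji, with the number of genes measured; lists are sorted by the median difference of effects, largest at the top. The interferon effectors stand apart, at -0.64 in Daudi, 1.84 in Namalwa and 2.58 in Raji, while Namalwa lies lowest for mitosis and DNA replication.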

How the data were processed

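RNA of untreated and treated cells was hybridised to Affymetrix arrays, per the labels' protocols. The deposited values are log2 expression per probe set, normalised by the authors with RMA in R 2.10.1, per the submitters' processing notes; normalisation over all arrays can shift the values of any one of them. Gene symbols came from the platform annotation: of 22215 probe sets other than controls, 19065 had 1 symbol, 1043 several and 2107 none. Of the 19065, 19053 matched RefSeq by gene ID.

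A linear model with 6 group means was fitted to the 12 arrays with limma 3.58.1 (lmFit and eBayes, R 4.3.3), with 6 residual degrees of freedom, and p-values were adjusted by Benjamini-Hochberg over 19065 probe sets. Arrays were grouped by cell line and treatment as labelled. Depth does not apply to arrays: 2 per group limit the precision. The members, gene lists and rules were chosen with earlier results of these data known. Named genes were the 15 per direction with the largest called difference that Namalwa and Raji shared in sign, up to 5 called in opposite directions, up to 4 called genes per list (the 2 largest differences in lists with under 2 calls), 4 per direction of the shared response and of Namalwa minus Raji, and a fixed list of pathway genes. Alternatives were other scalings, filters, array weights, blocks and leaving out arrays or lines. The other 10 arrays of the series entered 1 alternative.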

Additional observations from a re-analysis of the deposited data

Results flagged for a closer look

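The drug effect differed between lines, by limma's test of the difference itself, for each of the genes below. The values are differences of drug effects on the log2 scale, and all come from the test across 19065 probe sets with adjusted p under 0.05. Because genes were named for their calls, the number of them carries no further information.

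The mean effect in Namalwa and Raji was above that in Daudi for IFI27 at 7.52, IFIT1 at 6.69 and CCNA1 at 5.06. It was also above that in Daudi for TRIM22 at 4.66, IFI44 at 4.64, ISG15 at 4.44 and CRIP1 at 4.43. Differences above the Daudi effect were also found for CSTA at 4.29, RSAD2 at 4.2, CXCL9 at 4.08, RIGI at 3.69, USP18 at 3.59, PLXNC1 at 3.42 and SAMD9 at 3.32. The same direction held for IFIT2 at 3.0, IFIH1 at 2.7, IRF1 at 1.36, TAPBP at 1.39, B2M at 1.11, TNFAIP2 at 2.46 and BCL2A1 at 2.36. Further genes above the Daudi effect were CXCL8 at 2.03, REL at 1.8, ICAM1 at 1.62, CXCL11 at 2.7, CCL19 at 1.09, IL1B at 1.51 and CDKN1A at 1.5. The remaining genes above it were SSX3 at 1.55, ENO2 at 1.7, MT2A at 2.06, ANXA1 at 0.91 and FN1 at 1.58.

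The mean effect in Namalwa and Raji was below that in Daudi for ACD at -2.32, PHGDH at -2.17, ECI2 at -2.15, CROCCP2 at -2.01, ESD at -1.94, CCDC28B at -1.91 and NOTCH2 at -1.88. Differences below the Daudi effect were also found for SS18L1 at -1.85, RALGAPA1 at -1.85, DTL at -1.79, NSUN5P1 at -1.78, LRRFIP1 at -1.76, MAST3 at -1.75 and PIBF1 at -1.68. Further genes below it were GCSH at -1.67, LRRC47 at -1.34, INTS8 at -1.23, PAXBP1 at -1.14, VPREB1 at -1.33, ORC6 at -1.36 and CASP6 at -1.37. For VPREB1 the effect lay below that in Daudi in Namalwa but not in Raji.

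Between Namalwa and Raji, the effect was higher in Namalwa for NMU at 4.61, SPARCL1 at 3.78, ITGB2 at 3.3 and PALLD at 3.23. It was lower in Namalwa for BACH2 at -3.84, RRM2 at -3.59, NCAPG at -3.23 and KLRC3 at -3.07.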

How the results depend on the processing

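Over the alternatives that kept all 3 lines, no difference of the 54 called genes was reversed, but calls were often lost. Filters, all 22 arrays, the replicate block, array weights, an intensity trend, a test against 1 and lines as units kept the same estimates. A reversal was therefore possible only with other scalings or with an array left out. Of the 1239 values of the 54 genes, 794 were called, 445 were no longer called and 0 were reversed. With 1 probe set per gene, dim probe sets left out, arrays centred on their median, quantile normalisation, cyclic loess or an intensity trend, between 214 and 295 probe sets were called. Against Daudi, the 102 probe sets higher became 187 with all 22 arrays, 248 with array weights, 5 tested against a difference of 1, 353 without Raji and 18 without Namalwa. The 147 lower became 358 with array weights, 0 against a difference of 1, 400 without Raji and 16 without Namalwa. With lines as units, which leaves 1 degree of freedom, limma called 0 higher and 0 lower, with 1541 at an unadjusted p under 0.05. Tested against a difference of 1, 177 had an unadjusted p under 0.05. Namalwa minus Raji gave 157 higher with all 22 arrays.

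The replicate numbers did not pair the arrays: deviations of same-numbered arrays correlated at -0.09 in Daudi, -0.14 in Namalwa and 0.02 in Raji. With the replicate number as a block, limma called 0 higher and 0 lower against Daudi, with 2587 at an unadjusted p under 0.05, and 2 higher and 2 lower between Namalwa and Raji. With the numbers crossed in Namalwa, an alternative chosen after seeing the data, the counts were 1 and 0, and 1 and 2.

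Leaving out 1 array at a time gave 8 to 288 higher and 3 to 276 lower against Daudi, and 0 to 173 higher and 2 to 147 lower in Namalwa minus Raji. The list medians ran from 0.49 to 0.90 for immunoglobulin, 0.17 to 0.35 for chemokine, -0.51 to -0.31 for DNA replication, -0.82 to -0.29 for mitosis, 0.028 to 0.35 for heat shock, -0.088 to 0.24 for cholesterol, 0.28 to 0.44 for adhesion and -0.040 to 0.16 for myeloid genes. Within lines the ranges were 739 to 2050 and 550 to 2104 in Daudi, 751 to 2068 and 1178 to 2674 in Namalwa, and 353 to 1345 and 567 to 2206 in Raji.

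Of 646 list medians, 615 moved by less than the spread between replicates and 622 kept their sign. An alternative that keeps the same estimates for the same genes, such as the replicate block, cannot move a median. Any such alternative counted here adds to both numbers by construction, so the numbers alone do not show how stable the medians were. Without Raji the median became -0.32 for germinal centre, 0.45 for immunoglobulin, 0.30 for MHC class II, 0.79 for EBNA2 or LMP1, 0.32 for chemokine, -0.71 for DNA replication, -1.16 for mitosis, 0.29 for cholesterol, 0.46 for adhesion and 0.16 for myeloid genes. Without Namalwa it became 0.93 for immunoglobulin, -0.40 for MHC class II, 0.063 for interleukin, 0.0035 for DNA replication, 0.30 for mitosis, -0.19 for cholesterol, 0.25 for adhesion and -0.061 for myeloid genes. Quantile normalisation gave 0.44 for adhesion and cyclic loess -0.29 for DNA replication. The cause was not tested. Duplicate arrays and 1 line on one side limit all counts.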
